A study of Mus musculus with 15 samples.

Results

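The acetylcholine and monoamine receptor genes were followed from cultured mouse astrocytes through chemical induction and were compared with primary neurons. Members were all rows of the expression table whose symbols name a nicotinic (Chrna, Chrnb, Chrnd, Chrne, Chrng) or muscarinic (Chrm) acetylcholine receptor, or a serotonin (Htr), dopamine (Drd) or adrenergic (Adra, Adrb) receptor. The rule found 49 of the table's 24346 genes. They were 16 nicotinic subunits, 5 muscarinic, 14 serotonin and 5 dopamine receptor genes, 6 α-adrenergic and 3 β-adrenergic receptor genes. The rule reads symbols only, but it was chosen with earlier results of these data known.

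Total RNA was sequenced from brain cells of C57BL/6 mice in 15 libraries, 3 in each of 5 groups. D0 are astrocytes. D4, D8 and D16 are cells labelled as chemical-induced neurons on days 4, 8 and 16 in vitro. PN are primary neurons. The labels name no inducing chemical, mouse age or brain region, and they do not say whether the 3 libraries of a group came from separate cultures, and the p-values given here therefore reflect library-to-library spread, which may be technical. Values are FPKM, fragment counts scaled by transcript length and by library size, so that the levels of different genes can be set side by side.

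Nicotinic receptors are ion channels of 5 subunits that open when acetylcholine binds. In brain, channels of α7 subunits alone and channels that combine α4 and β2 are the most familiar, whereas α3, α5 and β4 are typical of autonomic ganglia and the medial habenula, and α1, β1, δ, γ and ε form the channel of skeletal muscle. Muscarinic, dopamine and adrenergic receptors and nearly all serotonin receptors couple to G proteins, and Htr3a encodes a serotonin-gated channel. Astrocytes are known to respond to noradrenaline through α1 and β receptors.

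Marker lists were summed in FPKM to compare the labelled cell types with the data. The 8 astrocyte markers summed to 689 to 1606 at D0, 51.0 to 59.3 at D16 and 144 to 267 in PN, and 8 of 8 fell by D16. Of 6 neuron markers 4 rose by D16. The 6 summed to 271 to 384 at D0, 604 to 649.7 at D16 and 2924 to 3932 in PN. Stmn2 (304 ± 50.2 FPKM) made up most of the D0 sum. By the calls defined below, 16.6% of all genes tested were higher and 18.7% lower at D16 than at D0. The 5 mural markers, led by Acta2 and Tagln, summed to 1906 to 7785 at D0 and to 2.01 to 4.06 at D16, and the 5 fibroblast markers to 100.2 to 285 and 4.96 to 8.29. Microglia, oligodendrocyte, endothelial and skeletal muscle lists summed to 12.2, 10.7, 11.4 and 5.32 at most in any library. The 7 autonomic and sensory neuron markers summed to 0.700 to 1.78 at D0, 29.0 to 50.3 at D16 and 2.31 to 4.94 in PN. The part these cell types play in the receptor values was not tested, and fewer cells of a type cannot be told apart from less RNA per cell. Of all libraries, D16 replicate 2 and PN replicate 3 correlated least with the others of their group. Leaving out both, a step chosen after seeing the data, ended 1 of the calls given below, that of Chrnb2 between D16 and PN (0.83 in place of 1.13).

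Changes are differences of mean log2(FPKM + 1) with standard errors, so that the change of a gene with low values is understated. A gene was called higher or lower when limma's moderated test, adjusted by Benjamini-Hochberg over all 13983 genes tested, gave p below 0.05 and the change was at least 1. Of the 49 members, 27 reached 1 FPKM in at least 3 libraries and were tested. Because a member could pass through the group where it was high, the counts describe these 27 and not the family. Against D0, 10 members were higher and 3 lower at D4 (37.0% and 11.1% of the 27, beside 13.6% and 14.2% of all genes tested). At D8 the counts were 12 and 3 (44.4% and 11.1% of the 27, beside 15.5% and 16.9% of all genes), at D16 14 and 4 (51.9% and 14.8%, beside 16.6% and 18.7%), and in PN 10 and 5 (37.0% and 18.5%, beside 17.1% and 23.9%). These 4 comparisons share the D0 libraries. The shares called lower were near those of all genes, and the shares called higher lay above them. The median change over all 49 members was 0.15 at D16 and 0.15 in PN, and over all 24346 genes it was 0 in both. In 29 members the mean of at least 1 group reached 1 FPKM, and those reported are described by library. The 20 others did not exceed 1.29 FPKM in any library and are given by range.

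**Figure D1:**
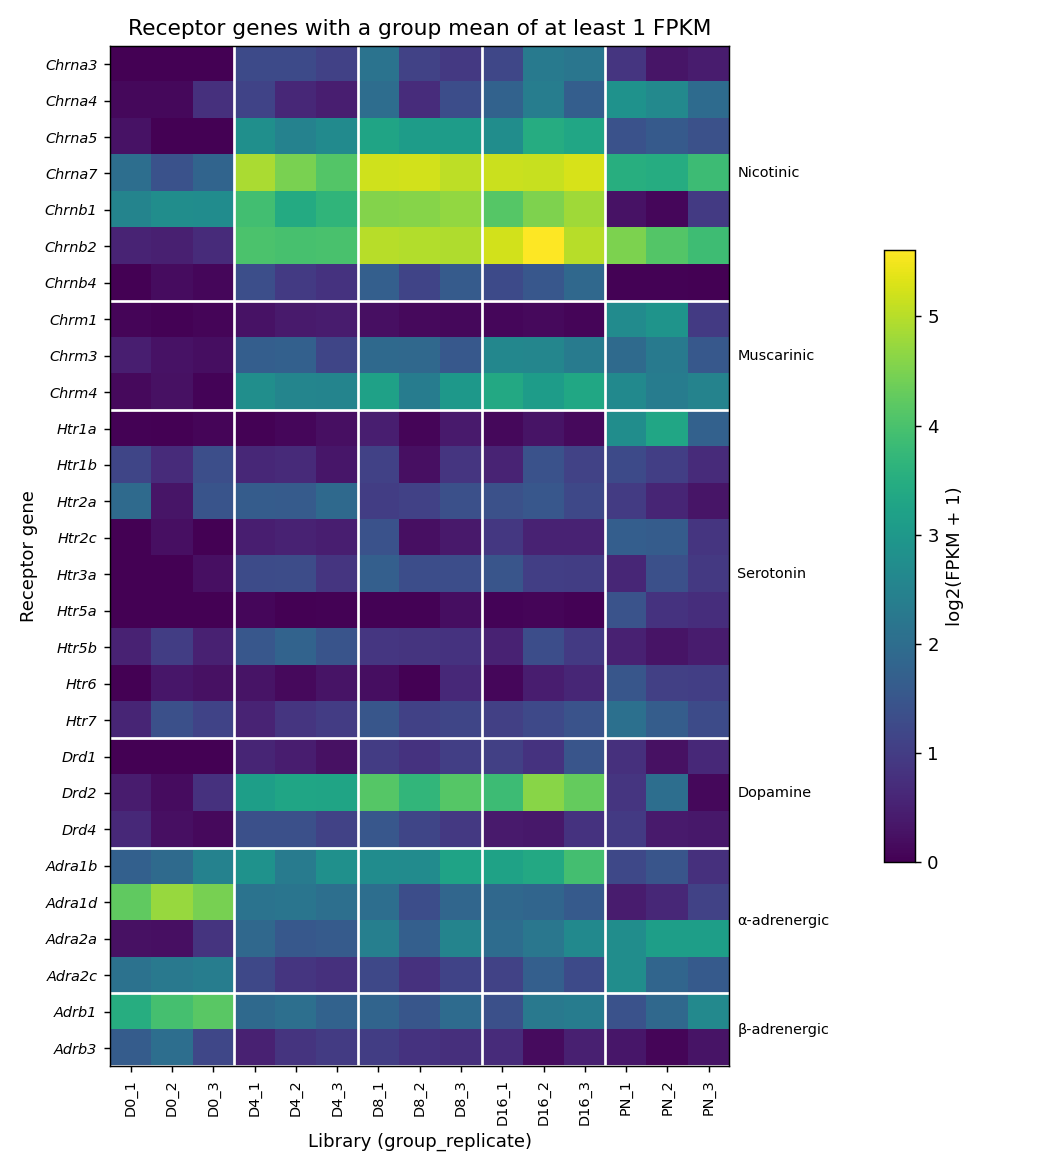
Level of 28 of the 29 receptor genes whose mean reached 1 FPKM in at least 1 group, as log2(FPKM + 1) by colour, with genes in rows by receptor family and the 15 libraries in columns. Chrnb2 and Chrna7 are the brightest rows at D16, Adra1d and Adrb1 the brightest at D0, and Htr1a and Chrm1 are bright only in the PN columns.

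In the induced cells the nicotinic subunits had the highest summed level of the 6 families. Summed over the 16 subunits the level was 8.91 ± 0.777 at D0, 57.7 ± 9.33 at D4, 103 ± 4.61 at D8, 112 ± 12.8 at D16 and 36.0 ± 4.43 in PN (FPKM, mean ± SD, n = 3). Chrna7, Chrnb2 and Chrnb1 together made up 83.7 to 88.8% of that sum in the D16 libraries. All 7 tested subunits were higher at D16 than at D0 (beside 16.6% of all genes tested), and 9 subunits were not tested. Chrna3 and Chrnb4 reached 1 FPKM only in induced libraries and so passed the filter through groups where they were high. The counts given here are therefore descriptions. In PN, 4 of the 7 were higher than at D0 (beside 17.1%), 1 was lower (beside 23.9%) and 2 were not called.

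Chrnb2 (chromosome 3, start 89746195, end 89764632 in GRCm38) encodes β2, the main partner of α4 in brain. It stood at 0.480, 0.398 and 0.603 FPKM at D0, 15.2, 14.6 and 15.03 at D4, 31.3, 30.03 and 29.8 at D8, 36.4, 47.8 and 31.4 at D16 and 21.5, 16.1 and 13.7 in PN. Every induced library lay above every D0 library, and the D8 and D16 values lay above all 3 PN values. The log2 change from D0 was 3.42 ± 0.17 at D4, 4.40 ± 0.17 at D8 and 4.71 ± 0.17 (adjusted p = 2.4e-11) at D16, and 3.58 ± 0.17 in PN. D16 was called above PN (1.13 ± 0.17, adjusted p = 4.3e-05), a call lost on the minimum change without D16 replicate 2 (0.96) or PN replicate 3 (0.99). Of the annotated exon bases of Chrnb2, 16.3% are shared with Adar, an RNA editing gene on the opposite strand, and whether reads were counted by strand is not given in the sources used here. Adar was at 11.3, 8.13 and 10.8 FPKM at D0, where Chrnb2 was below 1, at 23.3, 24.8 and 22.4 at D16 and at 38.1, 21.9 and 25.2 in PN, and its part in the Chrnb2 values was not tested.

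Chrna7 (chromosome 7, start 63098692, end 63212569) encodes α7, which forms channels with high calcium permeability. Its values were 3.10, 1.68 and 2.51 FPKM at D0, 28.6, 21.2 and 16.3 at D4, 35.9, 36.2 and 32.0 at D8, 34.5, 34.0 and 37.7 at D16 and 10.5, 10.04 and 13.3 in PN. The D0 libraries were lowest, the PN libraries intermediate, and the D8 and D16 libraries highest, with no overlap between those levels. The change was 3.43 ± 0.20 (adjusted p = 1.9e-09) at D16 and 1.86 ± 0.20 (adjusted p = 6.4e-07) in PN, and D16 was above PN by 1.57 ± 0.20. At D4 the 3 libraries were less even than at D8 (SD 6.21 and 2.31 FPKM). The level of Chrnb2 was 0.155 to 0.240 times that of Chrna7 at D0, 0.831 to 1.41 times at D16 and 1.03 to 2.04 times in PN.

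Chrna5, Chrna3 and Chrnb4 lie side by side on chromosome 9, with 2331 bases between Chrna5 (start 54980880, end 55007779) and Chrna3 (start 55010111, end 55026562) and 1591 between Chrna3 and Chrnb4 (start 55028154, end 55048779). Chrna5, an accessory subunit, stood at 0.212, 0 and 0 FPKM at D0, 5.91, 4.62 and 5.45 at D4, 8.75, 7.63 and 7.54 at D8, 5.75, 10.04 and 8.98 at D16 and 1.65, 1.99 and 1.63 in PN. Chrna3, a ligand-binding subunit of ganglionic receptors, stood at 0 FPKM in all 3 libraries at D0, 1.41, 1.38 and 1.11 at D4, 3.39, 1.15 and 0.902 at D8, 1.28, 3.90 and 3.62 at D16 and 0.830, 0.239 and 0.340 in PN. Chrnb4, its usual partner, stood at 0, 0.130 and 0.0661 FPKM at D0, 1.55, 0.945 and 0.761 at D4, 2.26, 1.22 and 2.06 at D8, 1.40, 1.89 and 2.74 at D16 and 0.0295, 0.0265 and 0 in PN. The D0 libraries were lowest for Chrna5 and Chrna3, and the induced libraries lay above all PN libraries for all 3 genes. Changes at D16 were 3.09 ± 0.18 (adjusted p = 2.8e-09) for Chrna5, 1.90 ± 0.31 (adjusted p = 8.0e-05) for Chrna3 and 1.48 ± 0.20 (adjusted p = 1.2e-05) for Chrnb4. In PN, Chrna5 was called above D0 (1.37 ± 0.18), while Chrna3 (0.53 ± 0.31) and Chrnb4 (-0.06 ± 0.20) were not called. With a pseudocount of 0.1, limma called Chrna3 higher in PN than at D0 (2.37 ± 0.52, adjusted p = 8.8e-04). All 3 were called higher at D16 than in PN, by 1.72 ± 0.18, 1.36 ± 0.31 and 1.54 ± 0.20. At D4, Chrnb4 was just under the minimum change (0.95 ± 0.20) and above it without D4 replicate 3 (1.07), and Chrna3 (1.20 ± 0.31) fell under it with quantile normalization (0.95). Among the autonomic and sensory neuron markers, 6 of the 6 tested were also higher at D16 than at D0 (beside 16.6% of all genes tested). Of these, 5 were higher at D16 than in PN (beside 19.6%). These markers could pass the filter through the induced groups where they were high, so the counts are descriptions.

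The 250 bases before the RefSeq starts of Chrnb2, Chrna7, Chrna5 and Chrna3 are shown to set their letters beside the values above. Chrnb2 and Chrna7 are the tested subunits with the largest rises at D16 on the scale of log2(FPKM + 1). That order depends on the scale. Over the alternatives the D16 change reached at most 6.02 for Chrnb2, 5.80 for Chrna5, 4.77 for Chrna3 and 3.85 for Chrna7. The neighbours Chrna5 and Chrna3 were both called higher than D0 at D4, D8 and D16. In PN, Chrna5 was called higher than D0 and Chrna3 was not. Sequences are from RefSeq on GRCm38.p6, 5′ to 3′ on the gene's strand, and 37 of the 49 members were matched. Capitals mark GC boxes (GGGCGG, the site of Sp1-type factors) and the E-box CACCTG (a site of basic helix-loop-helix factors), on either strand. The 2 motifs share no letters in the sequences shown. Chrna5 has 2 annotated starts, and both are given. The downstream Chrna5 window lies within the GENCODE gene given above, and the Chrna7 window overlaps the start of transcription of its GENCODE gene.
Chrnb2, chr3:89764633-89764882, minus strand: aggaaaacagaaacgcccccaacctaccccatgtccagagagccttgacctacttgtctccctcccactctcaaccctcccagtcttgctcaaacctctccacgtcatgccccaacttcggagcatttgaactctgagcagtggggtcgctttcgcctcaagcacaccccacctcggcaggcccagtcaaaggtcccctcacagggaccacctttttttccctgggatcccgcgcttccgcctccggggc
Chrna7, chr7:63212527-63212776, minus strand: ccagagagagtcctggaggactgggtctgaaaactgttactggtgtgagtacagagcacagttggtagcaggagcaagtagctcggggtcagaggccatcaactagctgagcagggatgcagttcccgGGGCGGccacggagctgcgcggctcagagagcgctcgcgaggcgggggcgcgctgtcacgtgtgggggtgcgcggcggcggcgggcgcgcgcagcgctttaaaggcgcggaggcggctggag
Chrna5, chr9:54980630-54980879, plus strand: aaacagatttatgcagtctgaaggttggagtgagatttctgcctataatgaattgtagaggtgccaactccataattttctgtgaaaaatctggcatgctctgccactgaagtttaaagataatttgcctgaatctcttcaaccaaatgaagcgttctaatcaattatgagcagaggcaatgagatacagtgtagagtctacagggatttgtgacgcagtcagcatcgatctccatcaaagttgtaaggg
Chrna5, chr9:54981238-54981487, plus strand: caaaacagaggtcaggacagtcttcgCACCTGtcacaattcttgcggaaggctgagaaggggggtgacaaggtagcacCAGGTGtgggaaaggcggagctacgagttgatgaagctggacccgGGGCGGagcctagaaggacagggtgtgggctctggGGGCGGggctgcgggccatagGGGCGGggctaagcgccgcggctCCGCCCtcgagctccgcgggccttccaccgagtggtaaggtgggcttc
Chrna3, chr9:55026563-55026812, minus strand: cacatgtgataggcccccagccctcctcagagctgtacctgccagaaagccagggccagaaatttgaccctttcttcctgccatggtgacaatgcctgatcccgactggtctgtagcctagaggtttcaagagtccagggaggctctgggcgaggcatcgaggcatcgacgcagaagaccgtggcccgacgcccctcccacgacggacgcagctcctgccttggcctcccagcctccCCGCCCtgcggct
GC boxes occurred in 32.7% of all 32851 RefSeq windows of this length and in 20 of the 42 windows of the matched members. The E-box occurred in 17.2% of all windows and in 11 of the 42. The downstream Chrna5 window held 4 GC boxes and 2 E-boxes, the Chrna3 and Chrna7 windows 1 GC box each, and the Chrnb2 and upstream Chrna5 windows neither. The RefSeq window of Chrnb4, which lies mostly within the 5′ UTR of its GENCODE model, was not printed.

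Chrna4, the α4 subunit (chromosome 2, start 181018380, end 181043546), differed from β2 in its order of levels. It was at 0.0840, 0.0863 and 0.714 FPKM at D0, 1.17, 0.550 and 0.382 at D4, 3.01, 0.637 and 1.501 at D8, 2.42, 4.21 and 2.20 at D16 and 6.27, 5.24 and 2.91 in PN. PN had the highest mean and D0 the lowest, and the D16 and PN values overlapped. The change was 1.61 ± 0.33 (adjusted p = 5.9e-04) at D16 and 2.15 ± 0.33 (adjusted p = 3.2e-05) in PN, and D16 did not differ from PN beyond the threshold (-0.55 ± 0.33, adjusted p = 0.163). Without D16 replicate 2 and PN replicate 3 the latter difference was -1.03 ± 0.36 (adjusted p = 0.0268) and was called. The call at D8 (1.01 ± 0.33, adjusted p = 0.0157) was not stable: adjusted p was 0.0589 with quantile normalization (change 0.73), the change missed the minimum with equal totals (0.96), and adjusted p was 0.0917 without D8 replicate 1 (change 0.68), 0.0548 without D0 replicate 1 and 0.0559 without D0 replicate 2.

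Chrnb1 (chromosome 11, start 69784036, end 69795943), the β subunit of the muscle receptor, was high in the induced cells and near 0 in primary neurons. Its values were 4.76, 5.76 and 5.59 FPKM at D0, 14.1, 9.75 and 11.6 at D4, 22.9, 23.3 and 25.1 at D8, 16.4, 21.8 and 27.0 at D16 and 0.202, 0.0682 and 0.947 in PN. The PN libraries were lowest, below every astrocyte library, and all induced libraries were above every D0 library. D16 was above PN by 4.04 ± 0.22 (adjusted p = 1.5e-09), the largest difference of the 27 tested members in that comparison. Against D0 it rose by 1.81 ± 0.22 at D16 and fell by 2.23 ± 0.22 in PN. The change at D4 (1.0002 ± 0.22) only just met the minimum and missed it with equal totals (0.98), without D0 replicate 1 (0.93) and without D4 replicate 1 (0.87).

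The other muscle subunits were low in every library. Chrna1, Chrnd, Chrng and Chrne ranged from 0 to 0.394 FPKM over all libraries. Chrnd was listed at 0 in all D0 and PN libraries and at 0.0189 to 0.172 in the induced ones. The myogenic gene Myog was listed at 0 in all D0 and induced libraries. The 6 skeletal muscle markers, of which it is 1, summed to 1.47 to 5.32 FPKM at D0 and 0.422 to 1.83 at D16. Rapsn, which clusters the muscle receptor, went from 0.639, 1.02 and 1.18 at D0 to 0.0636, 0 and 0 at D16. Neither gene was tested, and both are named beyond the rule, after their values were seen. The remaining subunits Chrna2, Chrna6, Chrna10 and Chrnb3 ranged from 0 to 0.237 FPKM, and Chrna9, a hair cell subunit, was listed at 0 in every library.

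**Figure D2:**
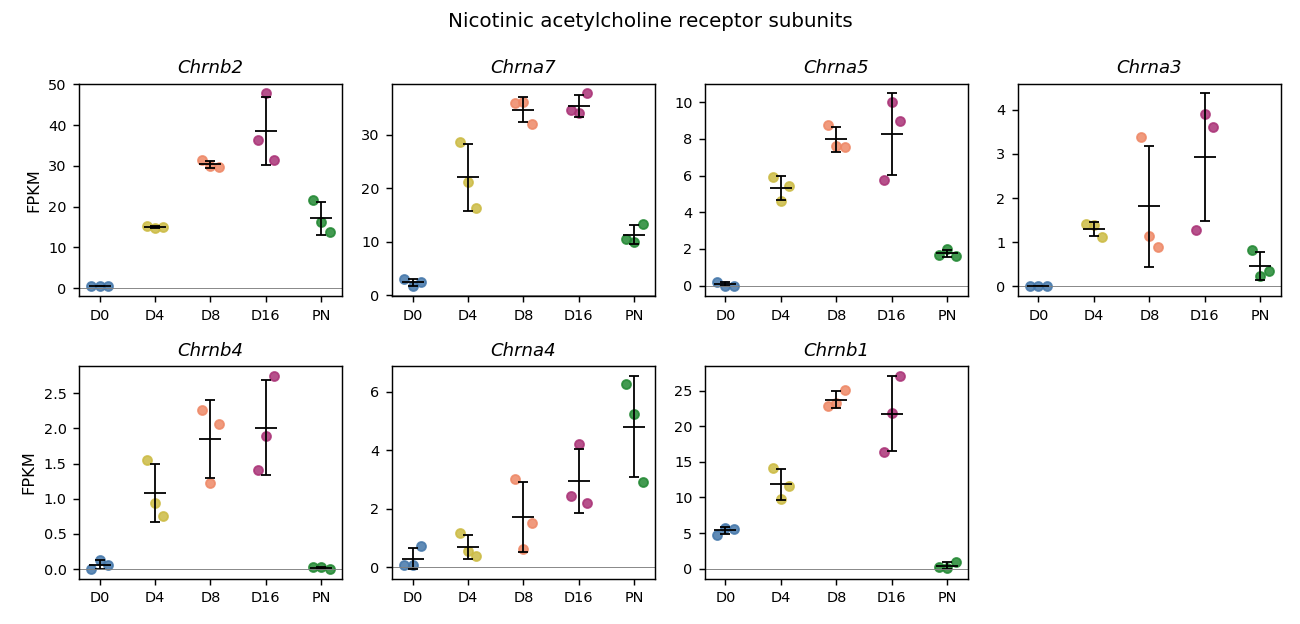
FPKM of the 7 tested nicotinic subunits in each library (points), with the group mean and SD (bars, n = 3), by group. The induced groups stand above D0 for Chrnb2 and Chrna7, PN is at 0.406 ± 0.474 FPKM for Chrnb1, and Chrna4 has its highest mean in PN.

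Both tested muscarinic receptors rose in the induced cells and in PN, and Chrm1, which was not tested, had its high values in PN. Chrm4 (chromosome 2, start 91927249, end 91928688), which couples to Gi and lowers cAMP, was at 0.105, 0.192 and 0.0425 FPKM at D0, 5.84, 4.91 and 4.79 at D4, 8.21, 4.13 and 6.91 at D8, 9.46, 7.52 and 9.20 at D16 and 5.29, 4.15 and 4.65 in PN. Each induced library and each PN library lay far above D0, and D16 lay above PN without overlap. The change was 3.12 ± 0.20 (adjusted p = 5.0e-09) at D16 and 2.35 ± 0.20 (adjusted p = 5.1e-08) in PN, and the D16 to PN difference of 0.77 ± 0.20 was under the minimum (adjusted p = 0.00323).

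Chrm3 (chromosome 13, start 9875486, end 10360847), which couples to Gq, was at 0.391, 0.207 and 0.147 FPKM at D0, 2.18, 2.28 and 1.27 at D4, 2.80, 2.71 and 1.90 at D8, 5.02, 4.93 and 4.04 at D16 and 2.84, 3.997 and 1.92 in PN. Its D16 libraries were the highest and its D0 libraries the lowest. The change was 1.21 ± 0.21 at D4 (0.80 with quantile normalization, under the minimum), 2.18 ± 0.21 (adjusted p = 4.1e-07) at D16 and 1.62 ± 0.21 in PN.

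Chrm1 (chromosome 19, start 8663789, end 8683587), the main Gq-coupled muscarinic receptor of cortex and hippocampus, was at 0.0587, 0.0304 and 0.0538 FPKM at D0, 0.206, 0.324 and 0.349 at D4, 0.170, 0.112 and 0.0829 at D8, 0.0734, 0.107 and 0.0579 at D16 and 5.49, 6.503 and 0.927 in PN. The PN libraries were above all others, but PN replicate 3 was several-fold below the other 2. Only 2 libraries reached 1 FPKM, so Chrm1 was not tested. With no filter on low values the PN change was 2.12 ± 0.36 (adjusted p = 2.2e-04) and D16 differed from PN by -2.07 ± 0.36 (adjusted p = 3.4e-04). Chrm2 (0.967, 0.532 and 0.489 FPKM) and Chrm5 (0.257, 0.696 and 0.0688 FPKM) also had their highest means in PN and ranged from 0 to 0.361 in the other groups.

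Among dopamine receptors the induced cells were dominated by Drd2 (chromosome 9, start 49340627, end 49408177), the Gi-coupled receptor that also serves as autoreceptor on dopamine neurons. It was at 0.337, 0.140 and 0.746 FPKM at D0, 7.82, 8.86 and 8.67 at D4, 16.6, 11.9 and 16.4 at D8, 13.4, 23.3 and 18.4 at D16 and 0.817, 3.08 and 0.0792 in PN. All 9 induced libraries were above all D0 and PN libraries, and the PN libraries spread from near 0 to above 3 and overlapped D0. Drd2 rose by 2.77 ± 0.36 at D4, 3.51 ± 0.36 at D8 and 3.77 ± 0.36 (adjusted p = 3.1e-07) at D16. PN was not called against D0 (0.53 ± 0.36, adjusted p = 0.207), and D16 was above PN by 3.24 ± 0.36 (adjusted p = 1.6e-06). Drd2 made up 87.7 to 94.3% of the summed dopamine receptor FPKM at D16.

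Drd1 (chromosome 13, start 54051183, end 54055705), the Gs-coupled receptor, was at 0 FPKM in all 3 libraries at D0, 0.486, 0.360 and 0.190 at D4, 1.0001, 0.768 and 1.07 at D8, 1.08, 0.762 and 1.78 at D16 and 0.718, 0.199 and 0.556 in PN. It was listed at 0 in all astrocyte libraries, and D16 lay above PN without overlap. The D16 change (1.12 ± 0.19, adjusted p = 9.4e-05) dropped under the minimum without D16 replicate 3 (0.94) and with quantile normalization (0.99).

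Drd4, also Gi-coupled, was at 0.564, 0.168 and 0.0994 FPKM at D0, 1.58, 1.60 and 1.14 at D4, 1.86, 1.24 and 0.915 at D8, 0.321, 0.294 and 0.759 at D16 and 0.937, 0.323 and 0.284 in PN. Its D4 and D8 libraries were above all D0 libraries and above all D16 libraries, and it was called in no comparison (0.95 ± 0.22, adjusted p = 0.00177 at D4, and -0.68 ± 0.22, adjusted p = 0.231 from D8 to D16). At D4 it passed the minimum without D0 replicate 1 (1.10) or D4 replicate 3 (1.04). At D8 (0.87 ± 0.22, adjusted p = 0.00274) it did so without D0 replicate 1 (1.03) or D8 replicate 3 (1.01). Drd3 and Drd5 ranged from 0 to 0.491 FPKM.

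The serotonin receptors had their highest mean sum in primary neurons. The sum over 14 genes was 4.99 ± 0.816 at D0, 7.96 ± 0.519 at D4, 7.80 ± 2.37 at D8, 7.98 ± 1.06 at D16 and 15.5 ± 5.93 in PN FPKM (n = 3), with PN replicate 3 (8.68) within the range of the induced libraries and the other PN libraries at 18.7 and 19.1. Of 8 tested genes, 1 was called higher at D16 than at D0, a share near that of all genes tested (16.6%). In PN, 3 others were called higher than at D0 (beside 17.1% of all genes tested). Of these, Htr1a and Htr6 reached 1 FPKM only in PN libraries and passed the filter through them, so the count is a description.

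Htr1a (chromosome 13, start 105443639, end 105448122), a Gi-coupled receptor of cortical and hippocampal neurons and of raphe autoreceptors, was at 0.0210, 0 and 0.0510 FPKM at D0, 0.0293, 0.0767 and 0.176 at D4, 0.381, 0.0490 and 0.323 at D8, 0.0833, 0.227 and 0.111 at D16 and 5.72, 8.99 and 2.35 in PN. All 3 PN libraries were above every other library, and PN replicate 3 was again the lowest of the 3. The PN change was 2.57 ± 0.28 (adjusted p = 8.4e-07), the D16 change was 0.15 ± 0.28 (adjusted p = 0.648), and the D16 to PN difference was -2.42 ± 0.28 (adjusted p = 2.6e-06). Without PN replicate 3 the PN change was 3.001. It was the 1 tested member called lower at D16 than in PN.

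Htr3a (chromosome 9, start 48899213, end 48911099), the serotonin-gated channel, was at 0, 0 and 0.177 FPKM at D0, 1.42, 1.45 and 0.808 at D4, 2.22, 1.504 and 1.499 at D8, 1.78, 1.05 and 1.03 at D16 and 0.529, 1.59 and 0.905 in PN. The induced and PN libraries were above the D0 libraries and overlapped each other. It was called at D4 (1.06 ± 0.21), D8 (1.37 ± 0.21, adjusted p = 5.7e-05) and D16 (1.10 ± 0.21), and the PN change was under the minimum (0.89 ± 0.21, adjusted p = 0.00166) and above it without PN replicate 1 (1.07). The D4 call was lost without D4 replicate 1 (0.996), without D4 replicate 2 (0.99) and with quantile normalization (0.76), and the D16 call without D16 replicate 1 (0.95) and with quantile normalization (0.93). Its channel partner Htr3b was at 0 to 0.0572 FPKM throughout.

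Htr2c, a Gq-coupled receptor, was at 0, 0.174 and 0 FPKM at D0, 0.381, 0.440 and 0.382 at D4, 1.64, 0.171 and 0.301 at D8, 0.873, 0.441 and 0.441 at D16 and 2.20, 2.12 and 0.833 in PN. D8 replicate 1 and D16 replicate 1 lay within the range of PN, and against D0 the gene was called in PN (1.32 ± 0.27, adjusted p = 5.7e-04). Without PN replicate 3 it was also called lower at D16 than in PN (-1.01). Htr6, a Gs-coupled receptor, was at 0, 0.273 and 0.194 FPKM at D0, 0.220, 0.0974 and 0.223 at D4, 0.151, 0 and 0.558 at D8, 0.0784, 0.359 and 0.529 at D16 and 1.83, 1.10 and 1.06 in PN. The PN libraries were the highest and the call in PN (1.004 ± 0.20, adjusted p = 3.6e-04) was lost without PN replicate 1 (0.86) or D0 replicate 1 (0.90).

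Htr5a, a Gi-coupled receptor that was not tested, was at 1.72, 0.777 and 0.655 FPKM in PN and at 0 to 0.162 in all other libraries. With no filter on low values its PN change was 1.0003 ± 0.14 (adjusted p = 3.4e-05). The PN libraries were above all others for this gene.

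The 4 other tested serotonin receptors were called in no comparison. Htr5b was at 0.450, 1.03 and 0.429 FPKM at D0, 1.89, 2.46 and 1.76 at D4, 0.863, 0.795 and 0.776 at D8, 0.447, 1.498 and 0.935 at D16 and 0.438, 0.222 and 0.352 in PN. Its 3 D4 libraries were the highest of all 15, with a change of 0.90 ± 0.20 (adjusted p = 0.00146), just under the minimum (1.07, called, without D0 replicate 2). Htr2a, which couples to Gq, was at 2.81, 0.244 and 1.73 FPKM at D0, 2.12, 2.05 and 2.76 at D4, 1.02, 1.12 and 1.59 at D8, 1.60, 1.87 and 1.33 at D16 and 0.965, 0.489 and 0.245 in PN. Its D0 libraries were uneven, with replicate 2 far below replicate 1, and without D0 replicate 2 PN was called lower (-1.07). Htr7, which couples to Gs, was at 0.496, 1.60 and 1.17 FPKM at D0, 0.476, 0.815 and 1 at D4, 1.81, 1.11 and 1.26 at D8, 1.08, 1.35 and 1.69 at D16 and 3.22, 2.17 and 1.43 in PN. Htr1b, a terminal autoreceptor, was at 1.25, 0.602 and 1.55 FPKM at D0, 0.537, 0.596 and 0.273 at D4, 1.11, 0.172 and 0.819 at D8, 0.478, 1.67 and 1.17 at D16 and 1.39, 1.06 and 0.622 in PN. For both genes D16 overlapped D0 and PN. Htr1d, Htr1f, Htr2b and Htr4 ranged from 0 to 0.707 FPKM in all libraries.

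**Figure D3:**
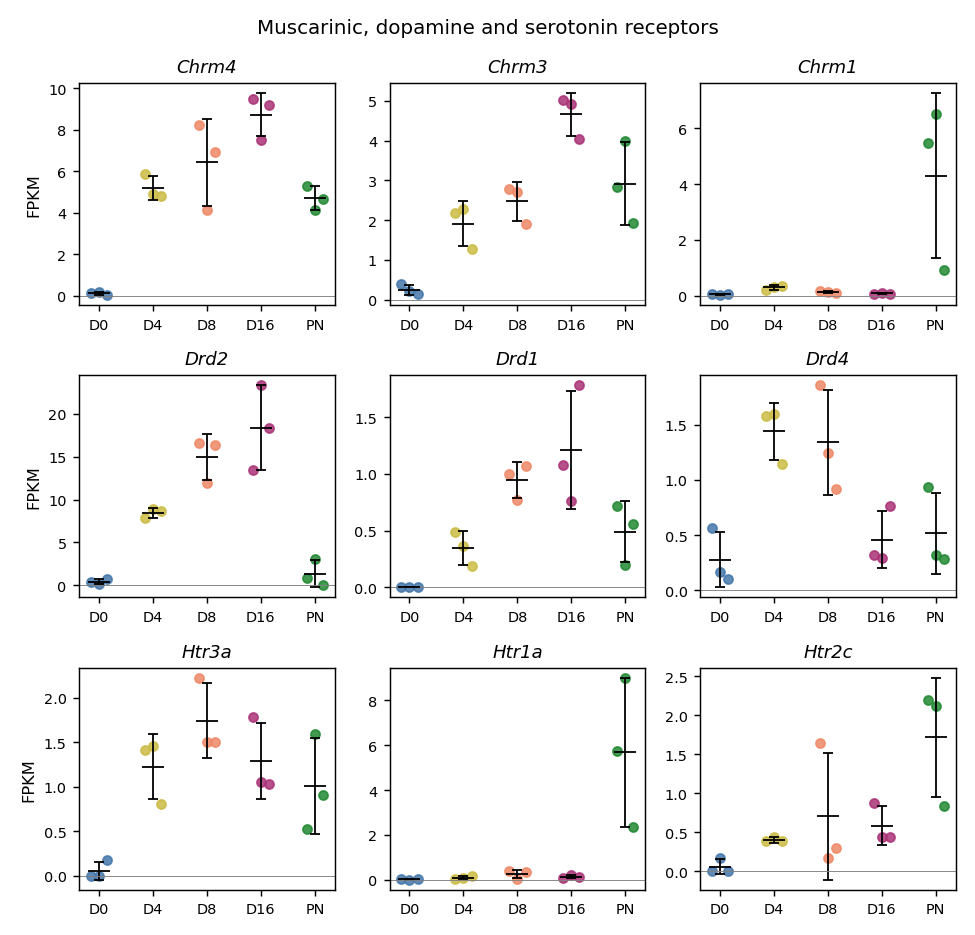
FPKM of 9 muscarinic, dopamine and serotonin receptor genes in each library (points), with group means and SD (bars, n = 3). Chrm4, Chrm3 and Drd2 are higher in the induced groups than at D0, and Htr1a and Chrm1 are at 5.69 ± 3.32 and 4.31 ± 2.97 FPKM in PN and near 0 elsewhere.

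All 4 members called lower at D16 than at D0 were adrenergic receptors, as were 4 of the 5 called lower in PN. The 6 α-adrenergic genes summed to 29.1 ± 4.54 at D0, 13.4 ± 1.58 at D4, 15.3 ± 4.08 at D8, 20.2 ± 3.93 at D16 and 12.9 ± 0.805 in PN (FPKM, n = 3). Of the 4 tested α receptors, 1 was called lower both at D16 and in PN, and so were Adrb1 and Adrb3. Of all genes tested, 18.7% were called lower at D16 and 23.9% in PN.

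Adra1d (chromosome 2, start 131545850, end 131562283), a Gq-coupled α1 receptor, was the most abundant member in astrocytes, at 18.0, 25.8 and 20.9 FPKM at D0, 3.43, 3.54 and 3.11 at D4, 3.10, 1.51 and 2.59 at D8, 2.73, 2.56 and 2.02 at D16 and 0.335, 0.542 and 1.15 in PN. Every D0 library was above every other library. It fell by 2.36 ± 0.22 at D4, and the change was -2.71 ± 0.22 (adjusted p = 5.4e-08) at D16 and -3.76 ± 0.22 (adjusted p = 8.8e-10) in PN. D16 remained above PN (1.06 ± 0.22, adjusted p = 5.6e-04), a call lost without PN replicate 1 (0.91), without D16 replicate 1 (0.998) and with quantile normalization (0.73).

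Adra1b (chromosome 11, start 43774606, end 43901210), its Gq-coupled relative, went the other way, at 2.29, 2.84 and 4.63 FPKM at D0, 6.26, 4.03 and 6.04 at D4, 5.66, 5.497 and 8.52 at D8, 8.33, 9.47 and 14.3 at D16 and 1.32, 1.80 and 0.713 in PN. The D16 libraries were above all D0 libraries and the PN libraries below them. The change was 1.46 ± 0.26 (adjusted p = 1.9e-04) at D16, and D16 was above PN by 2.35 ± 0.26 (adjusted p = 1.9e-06). The level of Adra1b was below that of Adra1d in each D0 library and above it in each induced and PN library except PN replicate 3. Adra1a, not tested, was at 0.133 ± 0.138 FPKM at D0, 0.790 ± 0.213 at D16 and 0.323 ± 0.0908 in PN.

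Adra2a (chromosome 19, start 54044151, end 54048982), a Gi-coupled presynaptic receptor, was at 0.198, 0.170 and 0.782 FPKM at D0, 2.73, 1.93 and 2.04 at D4, 4.33, 2.24 and 4.76 at D8, 2.97, 3.65 and 5.33 at D16 and 5.75, 7.83 and 7.80 in PN. D0 was lowest, PN highest, and the induced groups between them. Changes were 1.25 ± 0.25 at D4 (0.90 with quantile normalization, under the minimum), 1.85 ± 0.25 (adjusted p = 1.2e-05) at D16 and 2.57 ± 0.25 (adjusted p = 2.4e-07) in PN. Adra2c, also Gi-coupled, was at 3.34, 3.80 and 4.17 FPKM at D0, 1.33, 0.819 and 0.710 at D4, 1.31, 0.750 and 1.17 at D8, 1.15, 2.24 and 1.39 at D16 and 5.70, 2.56 and 2.004 in PN. All induced libraries were below D0. It was called lower at D4 (-1.30 ± 0.26, adjusted p = 6.3e-04) and D8 (-1.21 ± 0.26), the D16 change of -0.90 ± 0.26 was under the minimum (-1.07, called, without D16 replicate 2), and PN overlapped D0. Adra2b was at 0.400 to 0.829 FPKM in the induced libraries and at 0 to 0.0477 in D0 and PN, and was not tested.

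Adrb1 (chromosome 19, start 56722199, end 56733113), a Gs-coupled receptor of astrocytes and neurons, was at 10.3, 14.5 and 17.2 FPKM at D0, 2.79, 3.17 and 2.42 at D4, 2.51, 1.84 and 2.87 at D8, 1.60, 3.83 and 4.12 at D16 and 1.67, 2.71 and 5.21 in PN. The D0 libraries were above all others, and induced and PN libraries overlapped. The change was -1.96 ± 0.30 (adjusted p = 7.3e-05) at D4, -1.87 ± 0.30 (adjusted p = 7.6e-05) at D16 and -1.90 ± 0.30 (adjusted p = 5.2e-05) in PN. D16 and PN differed by 0.02 ± 0.30, less than its standard error.

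Adrb3, the Gs-coupled β3 receptor, was at 2.10, 3.06 and 1.30 FPKM at D0, 0.433, 0.802 and 0.968 at D4, 1.02, 0.768 and 0.679 at D8, 0.617, 0.125 and 0.414 at D16 and 0.263, 0.0506 and 0.222 in PN. All D0 libraries were above all others, and the D16 change (-1.17 ± 0.21, adjusted p = 2.0e-04) dropped under the minimum without D0 replicate 2 (-0.97). An antisense gene covers 24.9% of its exon bases. The astrocyte, mural and fibroblast marker sums given above fell along with these receptors, and their part was not tested.

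**Figure D4:**
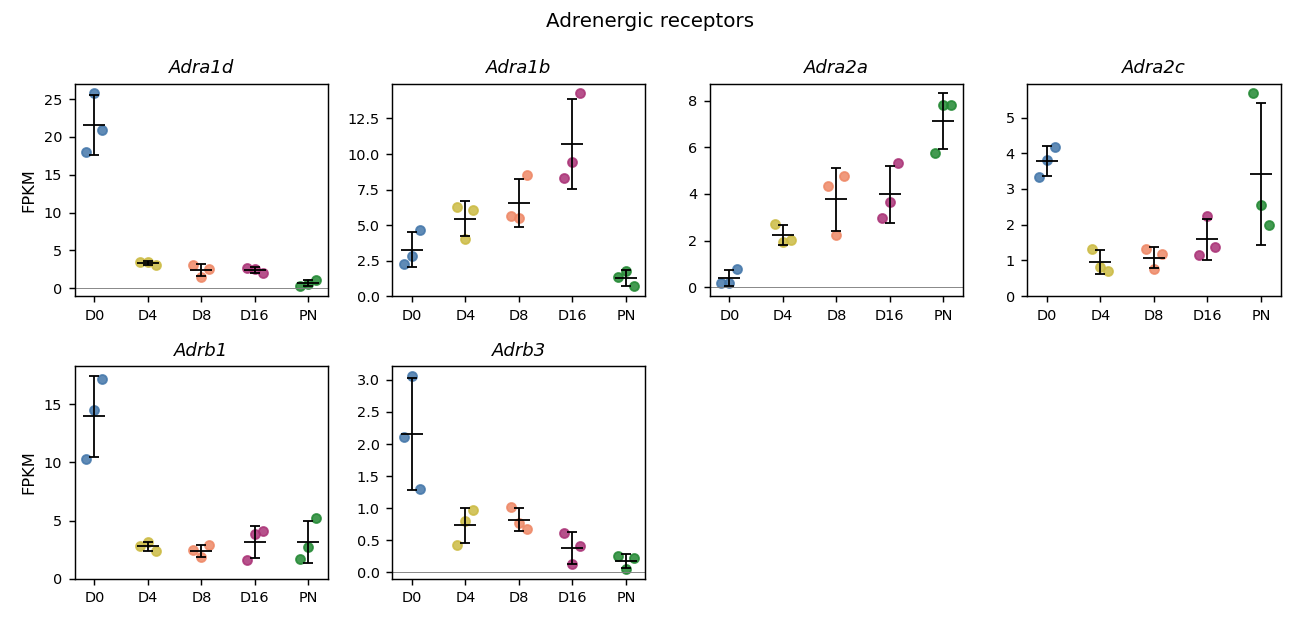
FPKM of 6 tested adrenergic receptor genes in each library (points), with group means and SD (bars, n = 3). Adra1d, Adrb1 and Adrb3 are highest at D0, Adra1b is highest at D16 and Adra2a is highest in PN.

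Between D16 and PN, 10 members were called higher at D16 and 1 lower (beside 19.6% and 15% of all genes tested). Among the 10 were Chrnb1, Drd2, Adra1b, Chrna5, Chrna7, Chrnb4, Chrna3, Chrnb2 and Adra1d, and the 1 was Htr1a. Nicotinic subunits were 6 of the 10. With no filter Chrm1 was added to the members called lower.

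**Figure D5:**
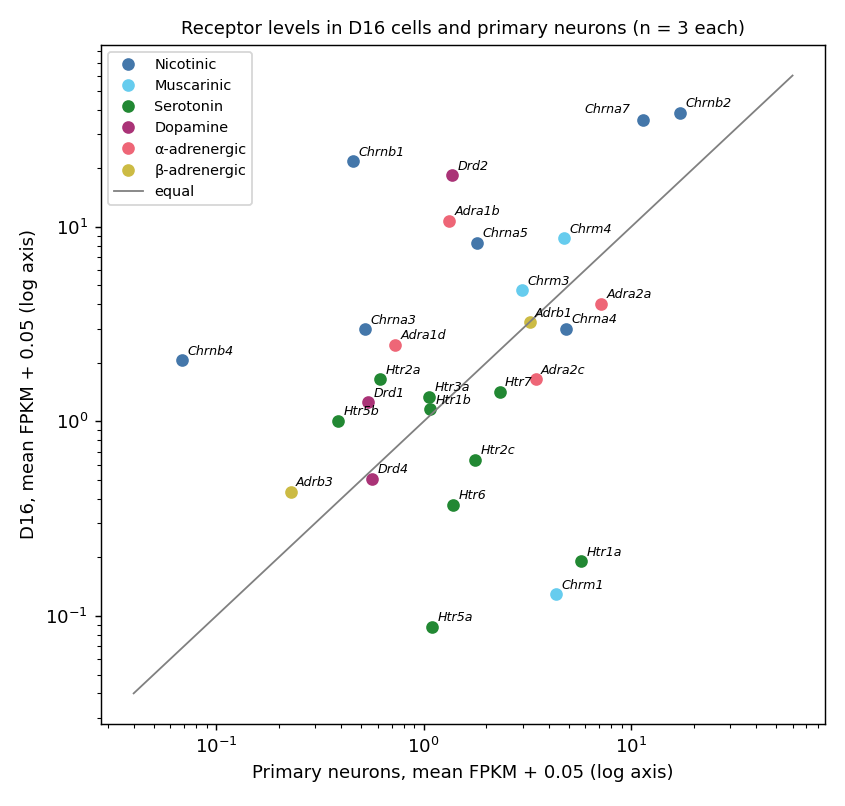
Mean FPKM of the same 28 receptor genes in primary neurons (horizontal) and at D16 (vertical), on log axes after adding 0.05 FPKM, coloured by family, with a line of equal levels. Chrnb1, Chrnb4 and Drd2 lie far above the line and Htr1a, Chrm1 and Htr5a far below it.

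In astrocytes the 3 highest members by mean FPKM were Adra1d (21.5), Adrb1 (14.0) and Chrnb1 (5.37). At D16 they were Chrnb2 (38.5), Chrna7 (35.4) and Chrnb1 (21.8), and in PN Chrnb2 (17.1), Chrna7 (11.3) and Adra2a (7.13). Among these, the libraries of Chrnb2 and Chrna7 overlapped at D16. The third place was not distinct from the next one at D16, where the libraries of Chrnb1 and Drd2 overlapped, or in PN, where those of Adra2a and Htr1a did.

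No member was called between successive induced time points. From D4 to D8 limma called 0 of the 27 members in either direction (0.501% and 1.51% of all genes were called), with 8 at an unadjusted p below 0.05. Chrnb2 (0.98 ± 0.17, adjusted p = 0.00474) and Chrnb1 (0.96 ± 0.22, adjusted p = 0.0270) passed the adjusted p but not the minimum change, which Chrnb1 passed without D4 replicate 1 (1.09). With a replicate block, which groups libraries by replicate number, 0 were called as well. From D8 to D16, 0 of the 27 were called (beside 0.0215% and 0.00715% of all genes), with 4 at an unadjusted p below 0.05: Chrm3 (0.71 ± 0.21), Adra1b (0.62 ± 0.26), Chrm4 (0.43 ± 0.20) and Drd4 (-0.68 ± 0.22).

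Genes that assemble or modulate nicotinic receptors were listed together with genes that break down acetylcholine or anchor the enzymes that do so. The genes of this joint list were partly higher as well. Of 12 tested, 7 were higher and 1 lower at D16 than at D0 (beside 16.6% and 18.7% of all genes tested), and 7 were higher and 2 lower in PN (beside 17.1% and 23.9%). Genes of this list and of those below could, like the members, pass the filter through the group where they were high, so these counts are descriptions. Ric3, a chaperone of nicotinic receptors, was at 4.27, 2.24 and 5.08 FPKM at D0, 31.4, 34.2 and 32.7 at D16 and 13.6, 16.4 and 12.1 in PN (2.84 ± 0.19 at D16). Ache, which breaks down acetylcholine, went from 1.18 ± 0.410 to 35.6 ± 15.1 FPKM (3.98 ± 0.41). The Ly6-family gene Ly6h was at 0.481 ± 0.604 FPKM at D0, 25.6 ± 13.4 at D16 and 560.5 ± 80.6 in PN, and Ly6e rose from 23.2 ± 10.5 to 107 ± 48.6 FPKM by D16. Tmem35, the α7 chaperone known as NACHO, is named beyond the rule, after its values were seen, as the 1 gene called lower at D16 (-1.01 ± 0.30, adjusted p = 0.00811). That change was barely past the minimum, the D0 and D16 libraries overlapped, and no alternative was run for this gene. It was at 17.3 ± 8.24, 7.87 ± 3.05 and 117 ± 15.8 FPKM at D0, D16 and PN and was called higher in PN.

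Genes for transmitter synthesis, transport and breakdown were tested for 9 of 20 genes, of which 6 were higher and 2 lower at D16 (beside the same 16.6% and 18.7% of all genes). Slc29a4, a low-affinity monoamine transporter, rose from 1.40 ± 0.640 to 84.5 ± 13.5 FPKM (5.18 ± 0.30), the vesicular acetylcholine transporter Slc18a3 from 0.0270 ± 0.0468 to 16.5 ± 4.78 (4.06 ± 0.31) and the dopamine transporter Slc6a3 from 0.0222 ± 0.0385 to 4.55 ± 1.69 (2.39 ± 0.21). Maoa, which oxidises monoamines, fell from 66.9 ± 11.3 to 12.7 ± 1.66 FPKM. The 11 untested genes included Th (0 to 0.116 FPKM at D16) and Ddc (listed at 0 in all D16 libraries), which make dopamine and were named after their values were seen.

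Downstream of the G-protein-coupled members, 1 of 10 Gα genes was higher and 1 lower at D16, the rest not called. For each count in this paragraph, 16.6% of all genes tested were called higher and 18.7% lower. Gnal, the Gs-type subunit of striatal and olfactory neurons, rose from 4.13 ± 0.433 to 26.1 ± 4.32 FPKM and Gnai2 fell from 649 ± 61.3 to 175 ± 24.1. Of 8 tested adenylyl cyclases 4 were higher (Adcy2, Adcy3, Adcy5 and Adcy7), and of 3 tested phospholipase C β genes 2 (Plcb1 and Plcb4). Receptor kinases and arrestins had 3 of 7 higher and 1 lower, with β-arrestin 1 gene Arrb1 going from 2.14 ± 0.345 to 19.3 ± 1.71 FPKM and the kinase Grk4 from 4.79 ± 1.88 to 0.765 ± 0.335. Regulators of G-protein signalling had 2 of 13 higher (Rgs10 and Rgs17), a share near that of all genes, and 5 lower, with Rgs8 going from 58.8 ± 28.4 to 0.123 ± 0.0573 FPKM and Rgs16 from 166 ± 50.9 to 6.58 ± 2.56.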

How the data were processed

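The authors deposited 1 table of FPKM values, with 24346 gene symbols and 15 value columns that each matched a sample title. Per the labels, total RNA was sequenced with paired-end reads of 150 bases, and mm10 (GRCm38) is the build that the submitters' processing notes name. No aligner, quantifier, strand setting or annotation is stated (not given in the sources used here). Read counts were not used. Depth relative to D0 replicate 1, read from the steps of low values, ran from 0.711 to 2.04 (PN 1.71 to 2.04), so values near 0 are least certain in the shallow libraries. FPKM totals were 548309 to 787080.0 per library.

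Values were transformed as log2(FPKM + 1). Genes with at least 1 FPKM in at least 3 of 15 libraries (13983) were fitted (two-sided moderated test) with limma 3.58.1 in R 4.3.3, as 1 group-means model of all libraries with 10 residual degrees of freedom and a variance trend, and adjusted by Benjamini-Hochberg per comparison over 7 comparisons run separately. The test was checked on simulated data. Members with a group mean of at least 1 FPKM are given by library, the rest by range, and from each pathway list up to 4 called genes with the largest change are named, with exceptions stated beside them. Results for 1 member and 1 marker gene are not reported here, although counts and sums include them. Members and lists were chosen with earlier results of these data known. Positions are from GENCODE on GRCm38, and overlaps of exons from the same annotation. Figures used Python 3.11.15 with matplotlib 3.10.9.

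Same-number libraries were checked as pairs by the correlation of their deviations from group means. Between D4 and D8 the 3 pairs correlated at 0.329 to 0.454 (other pairs -0.497 to 0.114). No other comparison had all 3 pairs above 0.1. The labels state no pairing or batch. By replicate, relative depth was 0.716, 1.63 and 0.712 at D4 and 1.04, 1.70 and 0.711 at D8, and its part was not tested. Results were recomputed with each library left out, with equal totals, quantile normalization or a replicate block, in fits of only the groups compared, without the minimum change, without a filter, with the filter at 5 FPKM, and with 0.1 as pseudocount. Leaving out D16 replicate 2 and PN replicate 3 together was chosen after seeing the data.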

Additional observations from a re-analysis of the deposited data

How the results depend on the processing

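Of 72 called member changes, 58 kept their call in every alternative in which they were tested, and none changed direction. The 31 lost calls, of 1023 recomputed, came from 14 results. In 27 of them the adjusted p stayed below 0.05 and only the minimum change was missed. Of 117 member changes not called, 24 were called with a pseudocount of 0.1, 4 with quantile normalization and 15 when libraries were left out. Equal totals moved the median gene by 0.13 in PN against D0 and by -0.11 in D16 against PN, and quantile normalization by 0.14 and -0.10. Equal totals also moved it by 0.12 from D8 to D16.

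Counts that moved by over 1.5 times were these. With quantile normalization, members called higher at D4 than at D0 went from 10 to 6, and the cause was not tested. The filter at 5 FPKM tested only 10 members and gave 7 higher at D8 against D0, 8 higher and 2 lower at D16, 5 higher and 3 lower in PN, and 0 lower in D16 against PN. With no minimum change, 5 were lower at D8 against D0. Against a count of 1 lower at D16 than in PN, the alternatives gave 2 with a pseudocount of 0.1, 2 with no filter, 3 with quantile normalization, 5 with no minimum change, and 3 without D16 replicate 2 and PN replicate 3 (Htr1a, Chrna4 and Adra2c). Against 0 higher from D4 to D8, a pseudocount of 0.1 gave 1 and no minimum change 2. The replicate block changed no count and no call (14 higher and 4 lower at D16 against D0).

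Leaving out 1 library gave 8 to 12 higher and 3 to 4 lower at D4, 11 to 13 and 3 at D8, 13 to 14 and 3 to 5 at D16, and 9 to 10 and 5 to 6 in PN, all against D0. For D16 against PN it gave 8 to 10 higher and 1 to 2 lower (2 without PN replicate 3), and from D4 to D8 0 to 1 higher (1 without D4 replicate 1). Low values kept 22 members from being tested.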
